A study of Mus musculus with 12 samples.

Results

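The 10 genes described here encode proteins of amino acid uptake across the plasma membrane, 9 of them carriers and Slc3a2 a partner chain that carriers need. All 10 are called carriers below for short. They were chosen by name as Slc7a5, Slc7a6, Slc7a11, Slc3a2, Slc1a5, Slc38a1, Slc38a2, Slc7a1, Slc6a9 and Slc43a1, and all 10 were found among the 17210 genes of the count table. G1E-ER4 is a mouse erythroid progenitor line that lacks its own GATA1 and carries a GATA1 protein fused to the estrogen receptor ligand domain, which β-estradiol (EST) activates. All cells in the experiment carried this fusion and were transduced for 24 h with retrovirus, holding either no insert (Vector) or SREBP2 residues 1 to 468, the nuclear form of a factor that drives cholesterol synthesis genes. RNA was sequenced from 3 libraries each of Vector cells and SREBP2 cells without EST, and of Vector cells and SREBP2 cells given EST for 6 h (Vector+EST and SREBP2+EST). The EST dose was 500 nM by the sample protocol and 200 nM by the design text. SREBP2 was supplied from a virus above the level of the cells' own gene, and the labels do not say whether the libraries of a group came from separate cultures, so p-values measure the spread between these libraries, which may be technical.

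Amino acid carriers of the plasma membrane differ in substrate and in the ion or amino acid they exchange. Slc3a2 encodes the CD98 heavy chain, a glycoprotein without transport activity of its own, which is joined by a disulfide bond to a light chain such as Slc7a5 (LAT1, large neutral amino acids including leucine), Slc7a6 (y+LAT2, arginine and glutamine exchange) or Slc7a11 (xCT, cystine in exchange for glutamate). Glutamine taken up by carriers such as Slc1a5 and Slc38a2 can be exchanged for leucine through LAT1, and in maturing erythroid cells glycine is used for the first step of heme synthesis and leucine uptake is linked to globin translation through mTORC1.

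The cells were checked against their labels before the carriers were examined. Srebf2 averaged 361 and 442 CPM (counts scaled to a common library total, and adjusted for library composition by the TMM method) in Vector and Vector+EST, against 816 in SREBP2 and 808 in SREBP2+EST. The paper's quantitative PCR measured human SREBP2 in transduced G1E-ER4 cells, while these reads were counted on the mouse genome. The Srebf2 level may thus miss reads of the insert and is not a measure of the overexpression. All 9 erythroid progenitor markers were present, and their sum was 7944 to 8336 CPM in Vector and 5844 to 6910 in the other groups, without overlap. Hba-a1 (α-globin) averaged 3091 CPM in Vector, 1635 in SREBP2, 1737 in Vector+EST and 1589 in SREBP2+EST, Tal1 479, 103, 99.8 and 92.4, and Epor 114, 68.1, 63.0 and 61.6, all lower outside Vector. Tfrc (527, 806, 838 and 807 CPM) and Alas2 (52.1, 176, 138 and 173) were higher outside Vector. Erythroid markers thus differed from Vector in both directions in the groups where the carriers did, and their part in the carrier results was not tested. The labels call the cell type embryonic stem cells, but Nanog, Sox2 and Esrrb averaged at most 0.392 CPM in any group, while Dppa4 averaged 93.8 to 97.5 CPM. Library totals ran from 18700959 to 19152281 estimated counts, and 3 counts, taken as the floor of detection, corresponded to 0.153 to 0.163 CPM. Libraries are named by group and column number. SREBP2 1 and SREBP2+EST 1 stood apart from their groups: the chi-square per gene against the other SREBP2 libraries was 8.17 and 10.7, compared with 2.63 between those libraries, and against the other SREBP2+EST libraries it was 6.22 and 6.33, compared with 2.29. Each was nearer to the other group: the chi-square per gene was 3.76 and 4.88 between SREBP2 1 and SREBP2+EST 2 and 5, and 1.93 and 3.14 between SREBP2+EST 1 and SREBP2 3 and 5. Their fibroblast markers followed their labels instead, with 1 count of Col1a1 in SREBP2 1 and 120 in SREBP2+EST 1. Whether these libraries were exchanged was not tested, and groups were kept as labelled. Values without both libraries are given for the called differences of the carriers in comparisons that include an SREBP2 group. For genes of the related lists they were added after the data were seen, as counts in some comparisons and for some of the named genes.

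Markers of other cells also differed between groups. The 6 fibroblast markers summed to 19.2 to 19.9 CPM in Vector, 4.03 to 5.42 in SREBP2, 4.71 to 36.3 in Vector+EST and 18.6 to 35.1 in SREBP2+EST. In Vector nearly all of that sum was Col1a2, and the other 5 summed to at most 0.308 CPM in Vector and 0.217 in SREBP2 but to 12.8 to 27.2 in SREBP2+EST and 28.9 in Vector+EST 5. The 6 measured myeloid and mast cell markers summed to 12.03 to 12.54 CPM in Vector and 2.01 to 4.50 elsewhere, with 3 of them above the floor. The 4 measured megakaryocyte markers summed to 38.3 to 42.8 CPM in Vector, 46.1 to 61.1 in SREBP2, 11.5 to 12.8 in Vector+EST and 46.6 to 57.9 in SREBP2+EST. Within that sum the markers went opposite ways, Pf4 averaging 9.46 CPM in Vector and 47.7 in SREBP2, Itga2b 28.1 and 7.23, and Gp9 2.87 and 0.772. Their part in the carrier results was not tested, and in bulk RNA fewer cells of a type and less RNA per cell cannot be told apart.

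Without either agent the heavy chain led the carriers. Divided by the length of the longest annotated coding transcript, the mean level in Vector was 97.2 CPM per kb for Slc3a2, 52.3 for Slc7a5, 40.3 for Slc38a2, 28.2 for Slc7a1, 25.2 for Slc1a5, 8.31 for Slc7a6 and 7.18 for Slc6a9, and these neighbours were separated by more than their SDs over 3 libraries. Slc7a11 reached only 0.166 CPM per kb. Which transcript was expressed was not known, and the order depends on its length, which the SDs do not cover. Without division by length Slc3a2 also came first in Vector, at 273 CPM. It was then followed by Slc7a1 at 203, Slc38a2 at 188 and Slc7a5 at 184 CPM. In the other groups Slc7a5 came first, at 144 ± 4.96 CPM per kb in SREBP2, 127 ± 4.34 in Vector+EST and 146 ± 9.33 in SREBP2+EST (SD, n = 3), ahead of Slc3a2 at 115 ± 11.3, 91.9 ± 1.84 and 112 ± 8.09. The middle order also changed. In SREBP2, Slc1a5 (22.0 ± 3.23 CPM per kb) and Slc38a2 (21.8 ± 0.261) did not differ beyond their spread, and in Vector+EST Slc1a5 (9.64 ± 0.144) fell below Slc7a6 (17.5 ± 0.668).

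Slc38a1 and Slc43a1 were close to undetected. Slc38a1 (SNAT1, a sodium-coupled glutamine carrier, on chromosome 15, 96571418 to 96643438, minus strand, RefSeq GRCm38.p6) had 0 to 4 estimated counts per library and 12.97 in all 12. Slc43a1 (LAT3, a carrier of branched chain amino acids, on chromosome 2, 84838855 to 84863586, plus strand) had 0 to 3 per library and 10 in all. Neither passed the filter on low counts, no library held more than 4 counts of either, and no change could be detected at this depth. The 0 counts allow up to 0.153 to 0.163 CPM per library, for counting error only. The other 8 carriers were tested among 11177 genes, and Slc7a11 passed the filter through the Vector libraries alone, where all 3 exceeded the minimum of 0.528 CPM.

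The light chain Slc7a5 (chromosome 8, 121881146 to 121907686, minus strand) rose with either agent. Its level was 187, 182 and 183 CPM in the Vector libraries, 489, 524 and 506 in SREBP2, 452, 431 and 460 in Vector+EST and 549, 485 and 505 in SREBP2+EST. All 9 libraries with SREBP2, EST or both lay above the Vector libraries, and every SREBP2 library lay above every Vector+EST library. In Vector cells EST raised Slc7a5 by 1.28 on the log2 scale (SE 0.05, adjusted p = 7.3e-13, edgeR quasi-likelihood test with Benjamini-Hochberg adjustment over all genes tested, used for every adjusted p below), a 2.44-fold change. SREBP2 without EST raised it by 1.46 (SE 0.05, adjusted p = 1.16e-13), a 2.75-fold change.

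Slc7a6 (chromosome 8, 106168219 to 106198714, plus strand) moved in the same direction. It measured 31.2, 30.4 and 31.9 CPM in Vector, 62.6, 63.3 and 64.5 in SREBP2, 68.5, 64.5 and 63.8 in Vector+EST and 61.6, 61.7 and 60.6 in SREBP2+EST. The Vector libraries lay below all others, and the other groups lay within 60.6 to 68.5 CPM. The log2 fold change was 1.07 with EST in Vector cells (SE 0.05, adjusted p = 4.84e-12) and 1.03 with SREBP2 without EST (SE 0.05, adjusted p = 7.21e-12). Both comparisons use the same Vector libraries.

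The light chain Slc7a11 (chromosome 3, 50364936 to 50499087, minus strand) had a low level throughout. It measured 1.23, 1.63 and 1.74 CPM in Vector, 0.371, 0.758 and 0.380 in SREBP2, 0.515, 0.418 and 0.0531 in Vector+EST and 0.0542, 0.539 and 0.485 in SREBP2+EST, on 1.12 to 33.89 estimated counts per library. The Vector libraries exceeded all others, and the other groups overlapped. The log2 fold change was -2.19 with EST in Vector cells (SE 0.49) and -1.60 with SREBP2 without EST (SE 0.46). These are given as a description, without a test, because Slc7a11 entered the tested genes only through its level in Vector, which both comparisons use.

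The heavy chain Slc3a2 (chromosome 19, 8706882 to 8723369, minus strand) differed little with EST in Vector cells and was higher with SREBP2. It measured 275, 274 and 271 CPM in Vector, 286, 338 and 344 in SREBP2, 256, 265 and 255 in Vector+EST and 341, 298 and 305 in SREBP2+EST. Both SREBP2 groups lay above both Vector groups, and SREBP2 1, which stood apart, was the lowest library with SREBP2. SREBP2 raised Slc3a2 without EST by a log2 fold change of 0.24 (SE 0.06, adjusted p = 0.00212) and with EST by 0.28 (SE 0.06, adjusted p = 0.00304). Without SREBP2 1 and SREBP2+EST 1 these were 0.28 (adjusted p = 8.54e-08) and 0.22 (adjusted p = 1.58e-05). With EST in Vector cells the difference was -0.08 (95% interval -0.21 to 0.05, adjusted p = 0.254), although the libraries did not overlap. It passed the threshold when only the 6 libraries of that comparison were fitted (-0.08, adjusted p = 0.0236) and without the libraries that stood apart (-0.12, adjusted p = 0.000887).

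**Figure D1:**
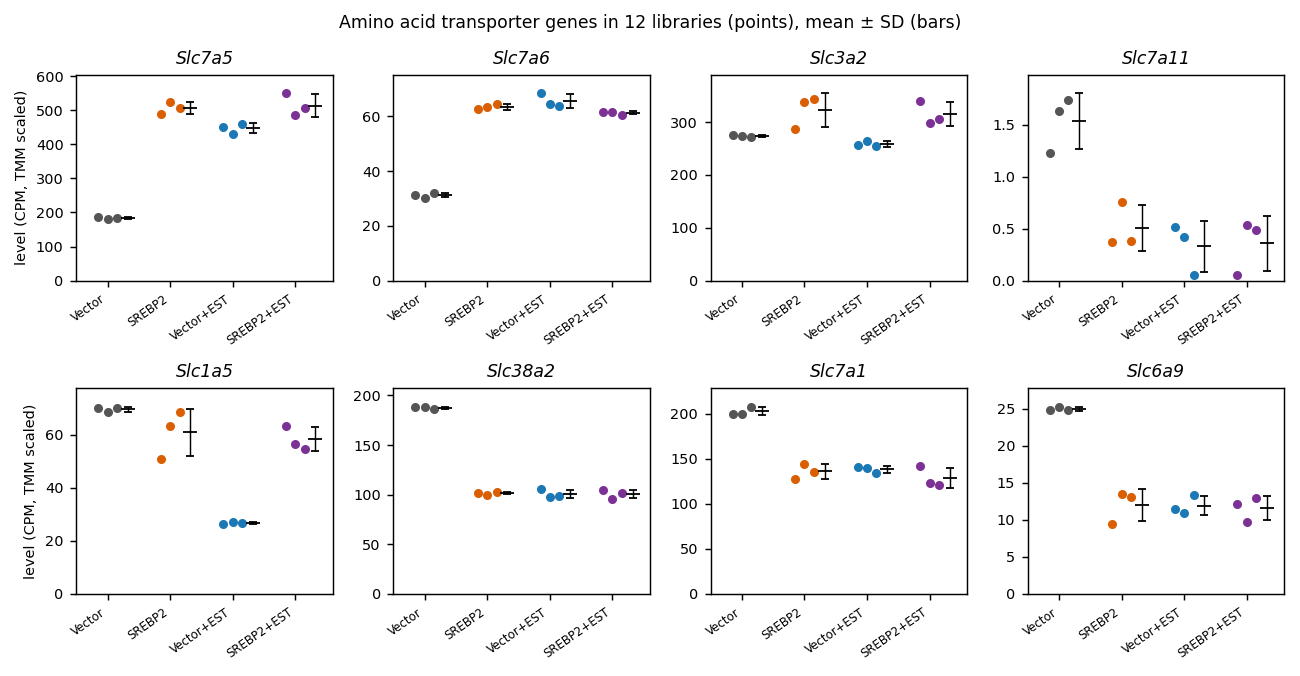
Level of the 8 tested carriers in TMM scaled CPM (vertical axes, from 0, scaled separately by gene) in each of the 12 libraries (points) by group (horizontal axes), with the mean and SD of 3 libraries as bars. Slc7a5 stood at 182 to 187 CPM in Vector and at 431 to 549 CPM elsewhere, Slc38a2 at 186 to 189 CPM in Vector and 96.2 to 106 CPM elsewhere, and Slc1a5 was lowest in Vector+EST, at 26.2 to 27.0 CPM.

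The ratio of light to heavy chain transcripts therefore shifted within each library, which does not depend on scaling between libraries. Slc7a5 per Slc3a2 was 0.681, 0.664 and 0.672 in the Vector libraries and averaged 1.58 ± 0.122 in SREBP2, 1.73 ± 0.0926 in Vector+EST and 1.63 ± 0.0204 in SREBP2+EST (SD, n = 3). No library outside Vector was below 1.47. Slc7a6 per Slc3a2 averaged 0.114 ± 0.00327 in Vector, 0.198 ± 0.0180 in SREBP2, 0.254 ± 0.0120 in Vector+EST and 0.196 ± 0.0133 in SREBP2+EST, and was highest in every Vector+EST library, at 0.244 or more. These ratios are of estimated counts, were chosen after the values were seen and are given without a test.

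**Figure D2:**
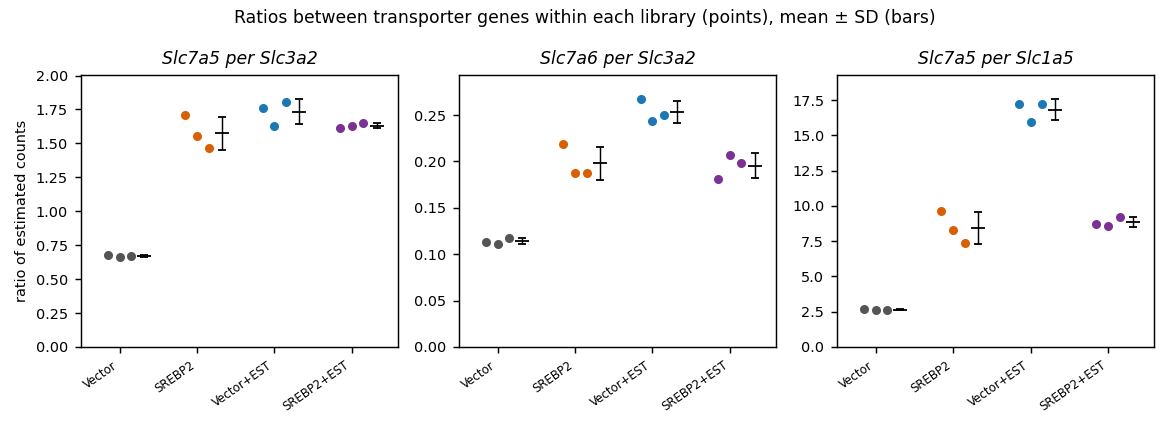
Ratio of estimated counts (vertical axes, from 0) of Slc7a5 to Slc3a2, Slc7a6 to Slc3a2 and Slc7a5 to Slc1a5 in each library (points) by group (horizontal axes), with the mean and SD of 3 libraries as bars. Slc7a5 per Slc3a2 was 0.664 to 0.681 in Vector and 1.47 to 1.81 elsewhere, and Slc7a5 per Slc1a5 was highest in Vector+EST, at 15.9 to 17.2.

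Slc7a5, Slc3a2, Slc7a11 and Slc7a1 carried decimals in their counts in all 12 libraries, so part of their reads was shared out among features by the counting model, and the split is less certain than for genes with whole counts.

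Among the glutamine carriers, Slc1a5 (ASCT2, exchange of glutamine and other small neutral amino acids; chromosome 7, 16781334 to 16798274, plus strand) was lowest in Vector+EST. It measured 70.1, 68.4 and 70.1 CPM in Vector, 51.0, 63.1 and 68.4 in SREBP2, 26.2, 27.0 and 26.7 in Vector+EST and 63.3, 56.6 and 54.7 in SREBP2+EST. Vector+EST lay far below the other groups, whose lowest library was SREBP2 1 at 51.0 CPM. In Vector cells EST lowered Slc1a5, with a log2 fold change of -1.38 (SE 0.09, adjusted p = 6.08e-10), 2.61-fold lower. With EST present, SREBP2 cells held 2.18-fold more than Vector cells, a log2 fold change of 1.13 (SE 0.09, adjusted p = 6.05e-08), and 1.06 (adjusted p = 1.28e-12) without the libraries that stood apart. SREBP2 without EST gave -0.19 (SE 0.08, adjusted p = 0.04), and this smaller call changed with single libraries. It was kept without both libraries that stood apart (-0.12, adjusted p = 0.0188), was -0.08 (adjusted p = 0.214) without SREBP2 1 alone and missed the threshold at the same -0.19 without Vector 1 (adjusted p = 0.0882), Vector+EST 1 (adjusted p = 0.0505) or Vector+EST 3 (adjusted p = 0.0515).

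Slc38a2 (SNAT2, a sodium-coupled carrier of glutamine and alanine; chromosome 15, 96687392 to 96699728, minus strand) fell to nearly the same level with EST, SREBP2 or both. It measured 189, 188 and 186 CPM in Vector, 102, 100.1 and 102 in SREBP2, 106, 97.9 and 98.8 in Vector+EST and 104, 96.2 and 102 in SREBP2+EST. The Vector libraries stood above all others, and the remaining groups overlapped one another. The log2 fold change was -0.90 with EST in Vector cells (SE 0.04, adjusted p = 1.29e-11) and -0.89 with SREBP2 without EST (SE 0.04, adjusted p = 1.26e-11).

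The ratio of Slc7a5 to Slc1a5 transcripts, the leucine exchanger to the glutamine exchanger, averaged 2.64 ± 0.0340 in Vector, 8.44 ± 1.11 in SREBP2, 16.8 ± 0.751 in Vector+EST and 8.83 ± 0.348 in SREBP2+EST (SD, n = 3). The groups with SREBP2 overlapped each other and lay between the groups without it. This ratio was also chosen after the values were seen and is given without a test.

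Slc7a1 (CAT1, the main carrier of arginine and lysine; chromosome 5, 148327410 to 148399904, minus strand) fell as well. It measured 200.1, 200.2 and 208 CPM in Vector, 127, 145 and 136 in SREBP2, 140.5, 140.2 and 134 in Vector+EST and 142, 123 and 121 in SREBP2+EST. The Vector libraries again stood above all others without overlap. The log2 fold change was -0.55 with EST in Vector cells (SE 0.06, adjusted p = 2.23e-07) and -0.58 with SREBP2 without EST (SE 0.06, adjusted p = 1.3e-07).

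Slc6a9 (GLYT1, the glycine carrier of the erythroid plasma membrane; chromosome 4, 117835258 to 117869305, plus strand) measured 24.8, 25.3 and 24.9 CPM in Vector, 9.48, 13.5 and 13.0 in SREBP2, 11.4, 10.9 and 13.3 in Vector+EST and 12.1, 9.75 and 12.9 in SREBP2+EST. Every library with EST or SREBP2 was below every Vector library. Slc6a9 fell by 1.07 on the log2 scale with EST in Vector cells (SE 0.12, adjusted p = 4.59e-07) and by 1.06 with SREBP2 without EST (SE 0.12, adjusted p = 5.12e-07). Its exons overlap those of B4galt2 and Ccdc24, which lie on the opposite strand and are counted too. Whether the counting used strand was not stated, so the value of Slc6a9 is uncertain.

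Slc7a11 left out, 2 carriers rose and 4 fell of 7 with EST in Vector cells, where 70.6% of all genes tested passed the threshold, 35.2% higher and 35.5% lower. With SREBP2 without EST, 3 rose and 4 fell, against 71.5% of all genes, 37.7% higher and 33.8% lower. A change with either agent was thus common among all genes, and the counts alone do not set the carriers apart. The median log2 fold change of the 7 was -0.55 with EST and -0.19 with SREBP2, while that of all genes was 0.01 and 0.03. All 7 had libraries that did not overlap between groups in both comparisons, which held for 75.7% and 74.8% of all genes. Without both libraries that stood apart, the log2 fold change with SREBP2 without EST was 1.45 for Slc7a5, 1.00 for Slc7a6, -0.93 for Slc38a2, -0.57 for Slc7a1 and -0.95 for Slc6a9, all past the threshold.

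When EST was present, SREBP2 made little further difference to most carriers. Slc7a5 (log2 fold change 0.20, SE 0.04, adjusted p = 0.00448), Slc3a2 and Slc1a5 were higher in SREBP2+EST than in Vector+EST, and none of the 8 was called lower. Among all genes 21.9% passed the threshold, 14% higher and 7.94% lower. The libraries of both groups did not overlap for Slc7a5, Slc3a2, Slc1a5 and Slc7a6, which held for 38.1% of all genes. The difference was -0.10 for Slc7a6 (95% interval -0.19 to -0.01, adjusted p = 0.122), 0.00 for Slc38a2 (-0.09 to 0.09), -0.10 for Slc7a1 (-0.23 to 0.02), -0.04 for Slc6a9 (-0.31 to 0.24) and 0.12 for Slc7a11 (-1.28 to 1.51). The interval of Slc7a11 spans changes of more than 2-fold in both directions. With library totals as the only scaling Slc7a6 was also called lower (-0.14, adjusted p = 0.0224). Without both libraries that stood apart Slc7a5 was 0.14 (adjusted p = 0.00316). Without SREBP2+EST 1, Slc7a1 was called lower (-0.18, adjusted p = 0.0198), and without both libraries that stood apart it was -0.18 (adjusted p = 0.00156).

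EST made no called difference to any carrier in cells that already carried SREBP2, where 0% of all genes tested passed the threshold. At an unadjusted p under 0.05 there were 506 of 11177 genes by edgeR, no more than that threshold gives with no effect. DESeq2 called 12 genes after adjustment. Slc7a6 was the carrier whose libraries did not overlap between the groups, against 7.43% of all genes. The log2 fold change was 0.02 for Slc7a5 (95% interval -0.07 to 0.11), -0.05 for Slc7a6 (-0.14 to 0.04), -0.04 for Slc3a2 (-0.17 to 0.09), -0.06 for Slc1a5 (-0.24 to 0.11), -0.01 for Slc38a2 (-0.10 to 0.08), -0.08 for Slc7a1 (-0.20 to 0.04), -0.05 for Slc6a9 (-0.32 to 0.22) and -0.47 for Slc7a11 (-1.76 to 0.81). This comparison holds both libraries that stood apart, each nearer to the other group of the comparison, and its values hold only for the libraries as labelled. Without SREBP2 1 and SREBP2+EST 1, 1567 genes were called, and with them Slc3a2 (-0.175, adjusted p = 0.00163), Slc1a5 (-0.24, adjusted p = 0.00304) and Slc7a1 (-0.20, adjusted p = 0.00425) were lower with EST. The 5 fibroblast markers other than Col1a2 moved with EST in SREBP2 cells in all 3 libraries, and their part in these differences cannot be told apart from that of EST.

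**Figure D3:**
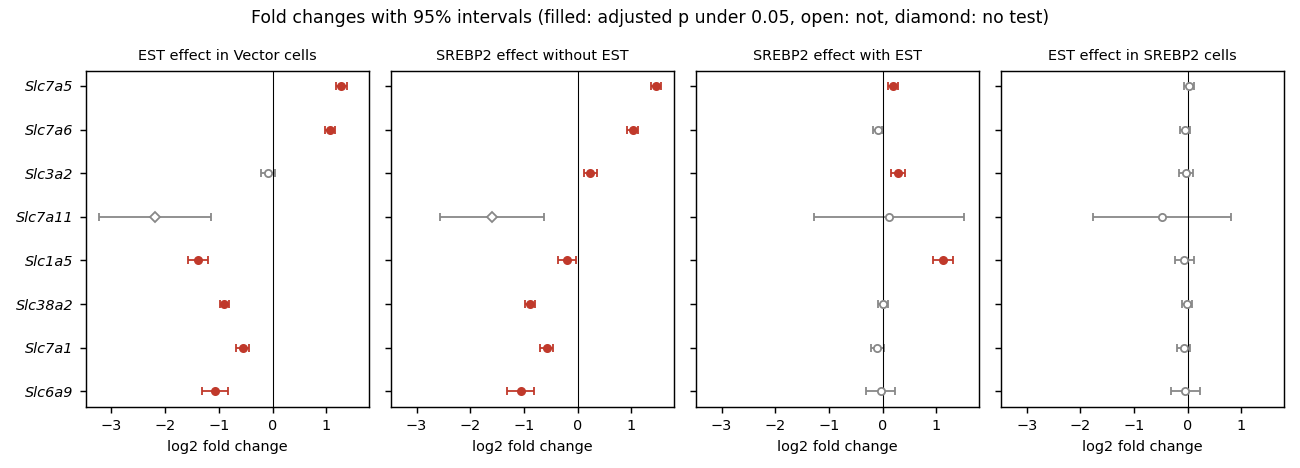
log2 fold change (horizontal axes) of the 8 tested carriers (rows) in 4 comparisons, with 95% intervals as bars, filled where the adjusted p was under 0.05, with diamonds for Slc7a11 where no test is given. Slc7a5 and Slc7a6 lie right of 0 and Slc1a5, Slc38a2, Slc7a1 and Slc6a9 left of 0 with either agent alone. All 8 lie across 0 for EST in SREBP2 cells. The intervals of Slc7a11 with either agent alone are no test, because it passed the filter only through Vector.

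The dependence of the EST response on SREBP2 was tested directly as the response in SREBP2 cells minus that in Vector cells. It passed the threshold for 6 of the 7 carriers other than Slc7a11, with 4 positive and 2 negative values, against 59% of all genes, 29.8% positive and 29.2% negative. The difference was -1.26 for Slc7a5 (SE 0.06, adjusted p = 1.31e-10), -1.12 for Slc7a6 (SE 0.06, adjusted p = 3.89e-10), 1.32 for Slc1a5 (SE 0.12, adjusted p = 1.12e-07), 0.89 for Slc38a2 (SE 0.06, adjusted p = 2.92e-09), 0.47 for Slc7a1 (SE 0.08, adjusted p = 1e-04) and 1.02 for Slc6a9 (SE 0.17, adjusted p = 9.49e-05). In each the sign is opposite to the EST response in Vector cells. That sign follows from the values already given. EST made no called difference in SREBP2 cells, so these differences largely repeat, with reversed sign, the EST response in Vector cells. The same Vector and Vector+EST libraries enter both. Without both libraries that stood apart the 6 stayed past the threshold, at -1.30 for Slc7a5, -1.10 for Slc7a6, 1.18 for Slc1a5, 0.90 for Slc38a2, 0.39 for Slc7a1 and 0.88 for Slc6a9. Slc3a2 gave 0.04 (95% interval -0.14 to 0.23, adjusted p = 0.688). Slc7a11 gave 1.72 (-0.02 to 3.45), with no test for the same reason as above.

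Each agent alone was also compared with the other. Slc7a5 (log2 fold change 0.18, SE 0.04, adjusted p = 0.00845), Slc3a2 (0.32, SE 0.06, adjusted p = 0.00105) and Slc1a5 (1.19, SE 0.09, adjusted p = 2.87e-08) were higher in SREBP2 than in Vector+EST, against 23.4% of all genes passing in either direction, 14.4% higher and 8.96% lower. Their libraries did not overlap between the groups, against 35.5% of all genes. The call for Slc7a5 was lost without SREBP2 3 (0.15, adjusted p = 0.0501) or Vector+EST 3 (0.15, adjusted p = 0.0535). Without both libraries that stood apart the 3 differences were 0.20 (adjusted p = 0.00013), 0.40 (adjusted p = 2.73e-09) and 1.30 (adjusted p = 2.21e-14). For the others the difference was -0.05 for Slc7a6 (95% interval -0.14 to 0.04), 0.01 for Slc38a2 (-0.08 to 0.10), -0.02 for Slc7a1 (-0.15 to 0.10), 0.01 for Slc6a9 (-0.26 to 0.28) and 0.59 for Slc7a11 (-0.71 to 1.89). The intervals of Slc7a6, Slc38a2 and Slc7a1 leave room only for small differences between the agents.

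Promoter sequence was examined for 6 of the 10 genes, as 9 windows of the 250 bases upstream of a RefSeq GRCm38.p6 transcription start. Slc7a5, Slc1a5, Slc38a1 and Slc7a1 were not examined here. Each window was searched on both strands for the composite element of ATF4 and C/EBP factors (TGATGNAAN), through which amino acid shortage induces carrier genes, the GATA words AGATAA and TGATAA, the E-box CACGTG, a sterol response word (TCACNCCAC) and the antioxidant response word (TGACNNNGC). Stretches of 29 bases around the words are shown because they hold the words found in examined carriers that were detected, with the words in capitals.
Slc7a11: cTGATGCAAAcctggagaaTTTGCATCAt
Slc7a6: ccggtgcgagTGACGTGGCgtgggcgggg
Slc38a2: ccccgcccacTGACGCGGCgccccgccgc
Slc6a9: tgaaagtaatTGACGCTGCccagcccggc
Slc6a9, a further start: gtttccggctTGACTTGGCtgcttggtat

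The stretch of Slc7a11 (chr3:50443652-50443680, minus strand, 67 to 39 bases before a start that lies inside the full span of the gene) holds the ATF4 word on each strand. That word was in 3.44% of 32851 windows genome wide and 2 or more copies were in 0.0396%, or 13 windows, and Slc7a11 was the carrier that held it among the 6 examined. The other stretches hold the antioxidant word at chr8:106168843-106168871 (plus strand) for Slc7a6, chr15:96699737-96699765 (minus) for Slc38a2, and chr4:117849294-117849322 and chr4:117855492-117855520 (plus) for Slc6a9. The stretches of Slc7a6 and Slc6a9 lie over annotated exons of their own genes. The antioxidant word was in 5 of the 9 carrier windows, that of Slc43a1 included, and in 10.2% of all windows. Slc7a6, which rose, and Slc38a2 and Slc6a9, which fell, all held it. The E-box was in 6.02% of all windows and in that of Slc43a1. The GATA words, in 16.6% of all windows, and the sterol word, in 1.05%, were in none of the 9. A match is a description of these letters in this window and says nothing of binding.

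Other carriers of the plasma membrane were followed as a list of 31 genes, of which 13 were tested. With EST in Vector cells 5 rose, 3 fell and 5 did not pass, against 35.2% higher and 35.5% lower of all genes. With SREBP2 without EST 5 rose, 2 fell and 6 did not pass, against 37.7% and 33.8%. With EST present, 3 were higher with SREBP2 and 10 did not pass, against 14% and 7.94%. Slc7a8 (LAT2), a further CD98 light chain for neutral amino acids, measured 160.2, 146 and 152 CPM in Vector, 676, 757 and 745 in SREBP2, 310.1, 313 and 312 in Vector+EST and 776, 686 and 695 in SREBP2+EST. Vector+EST lay between Vector and the SREBP2 groups without overlap. Its log2 fold change was 1.03 with EST in Vector cells (adjusted p = 6.66e-11), 2.25 with SREBP2 without EST (adjusted p = 5.79e-15) and 1.21 with SREBP2 when EST was present (adjusted p = 2.87e-11). With the libraries that stood apart left out, the values with SREBP2 were 2.26 (adjusted p = 4.58e-21) and 1.15 (adjusted p = 1.96e-16), and no call of the list with SREBP2 was lost or gained. Slc38a5 (SNAT5, a glutamine and glycine carrier) rose from 9.60 ± 0.856 CPM in Vector to 50.7 ± 7.49 in SREBP2 and 41.7 ± 4.86 in Vector+EST, and measured 49.5 ± 6.14 in SREBP2+EST (SD, n = 3). Slc43a2 (LAT4) rose from 18.1 ± 0.797 to 42.9 ± 3.33 and 34.4 ± 2.02, and Slc16a10 (TAT1, aromatic amino acids) from 54.1 ± 2.08 to 110 ± 5.94 and 101 ± 4.48 CPM. With SREBP2 when EST was present Slc16a10 was higher (log2 fold change 0.17, adjusted p = 0.0253), but 4 of 12 libraries left out in turn took that call away. Slc38a5 and Slc38a2, which belong to the same family, thus changed in opposite directions.

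Of 18 tested carriers of lysosomes and mitochondria, 8 rose and 7 fell with EST in Vector cells, 9 rose and 5 fell with SREBP2 without EST, and 2 rose and 2 fell with SREBP2 when EST was present, against 70.6%, 71.5% and 21.9% of all genes called in either direction. Slc25a38, the mitochondrial glycine carrier of heme synthesis, rose from 108 ± 1.42 CPM in Vector to 150.3 ± 12.5 in SREBP2 and 166 ± 7.59 in Vector+EST (SD, n = 3), while Slc6a9 at the plasma membrane fell. With SREBP2 when EST was present Slc25a38 was lower, with a log2 fold change of -0.19 (adjusted p = 0.0147). Without both libraries that stood apart it was -0.19 (adjusted p = 0.00188), and 1 of 12 libraries left out in turn took the call away. Ctns, the lysosomal cystine exporter, rose from 8.88 ± 0.604 to 20.2 ± 1.11 and 18.1 ± 1.06 CPM, and Slc7a11, which imports cystine, measured 1.53 ± 0.268, 0.503 ± 0.221 and 0.329 ± 0.244 CPM. Slc25a15 (ornithine) fell by 1.18 on the log2 scale with EST in Vector cells (adjusted p = 1.32e-06) and Slc25a22 (glutamate) by 1.02 (adjusted p = 1.72e-08). Slc38a7, a lysosomal glutamine carrier, was higher with SREBP2 when EST was present (0.56, adjusted p = 4.98e-05, and 0.61, adjusted p = 2.44e-06, without both libraries that stood apart). Without those libraries 8 rose and 7 fell with SREBP2 without EST, and 4 rose and 4 fell with SREBP2 when EST was present, against 70.7% and 30.7% of all genes called. Slc38a9, the lysosomal arginine sensor, gave 0.09 with EST in Vector cells (adjusted p = 0.107). With SREBP2 without EST Slc38a9 was higher (0.18, adjusted p = 0.00439), a call lost without both libraries that stood apart (0.10, adjusted p = 0.0668).

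Of 18 tested genes that respond to amino acid shortage, 4 rose and 12 fell with EST in Vector cells, against 35.2% higher and 35.5% lower of all genes, and 4 rose and 10 fell with SREBP2 without EST, against 37.7% and 33.8%. The median log2 fold change was -0.35 and -0.22, and that of all genes 0.01 and 0.03. Atf4, the factor of this response, averaged 89.5 ± 2.79 CPM in Vector, 78.1 ± 5.10 in SREBP2, 67.4 ± 1.06 in Vector+EST and 75.4 ± 1.17 in SREBP2+EST, and its log2 fold change was -0.41 with EST in Vector cells (adjusted p = 9.95e-07). Asns (asparagine synthetase, -0.36, adjusted p = 3.1e-07), Atf5 (-1.14, adjusted p = 1.49e-09) and Cebpb (-1.35, adjusted p = 7.17e-08) were lower as well. Ddit3 (CHOP, 1.04, adjusted p = 2.99e-10), Ppp1r15a (GADD34, which reverses the phosphorylation of eIF2α, 1.07, adjusted p = 8.57e-12) and Sesn2 (0.39, adjusted p = 1.22e-05) were higher. With SREBP2 when EST was present 4 rose and 1 fell, against 14% and 7.94% of all genes, Atf4 (0.16, adjusted p = 0.0234) and Cebpg (0.14, adjusted p = 0.0438) among those higher, and Shmt2 (-0.20, adjusted p = 0.000604) as the lower. None of these 5 calls was lost without both libraries that stood apart, and the values were 0.15 for Atf4 (adjusted p = 0.0105), 0.13 for Cebpg (adjusted p = 0.0499) and -0.22 for Shmt2 (adjusted p = 1.05e-05). The calls for Atf4 and Cebpg lay near the threshold. Leaving out SREBP2+EST 1 alone gave 0.15 for Atf4 (adjusted p = 0.0595) and 0.13 for Cebpg (adjusted p = 0.0821), and of 12 libraries left out in turn 4 took the call from Atf4 (0.15 to 0.18 over the 12) and 8 from Cebpg (0.10 to 0.16).

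Of 32 tested genes by which mTORC1 senses amino acids, 10 rose and 12 fell with EST in Vector cells, 16 rose and 10 fell with SREBP2 without EST, and 6 rose and 2 fell with SREBP2 when EST was present, against 70.6%, 71.5% and 21.9% of all genes called in either direction. Rraga, a GTPase that brings mTORC1 to lysosomes, rose from 81.5 ± 1.74 CPM in Vector to 185 ± 14.9 in SREBP2 and 208 ± 7.77 in Vector+EST, and Fnip1 from 27.6 ± 0.635 to 55.5 ± 6.03 and 59.5 ± 1.59 (SD, n = 3). Mios, a subunit of GATOR2, fell from 42.8 ± 1.26 to 17.8 ± 0.881 and 16.4 ± 0.787 CPM. Lamtor1 (0.49, adjusted p = 4.41e-06), Sesn1 (0.49, adjusted p = 2.65e-06) and Fnip2 (0.41, adjusted p = 0.000581) were higher with SREBP2 when EST was present, as Slc7a5, Slc3a2 and Slc1a5 were. Leaving out both libraries that stood apart, these were 0.51 (adjusted p = 8.94e-08), 0.51 (adjusted p = 1.54e-07) and 0.33 (adjusted p = 0.000163), and 14 genes of the list rose and 10 fell with SREBP2 without EST, and 8 rose and 3 fell when EST was present, against 70.7% and 30.7% of all genes.

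Of 17 tested genes that make or use glutathione, glycine or serine, 5 rose and 10 fell with EST in Vector cells, 5 rose and 9 fell with SREBP2 without EST, and 4 rose and 3 fell with SREBP2 when EST was present, against 70.6%, 71.5% and 21.9% of all genes called in either direction. Alas2, the erythroid enzyme that condenses glycine in heme synthesis, rose from 52.1 ± 0.168 CPM in Vector to 176 ± 12.02 in SREBP2 and 138 ± 6.85 in Vector+EST. Gclc and Gclm, the subunits of the enzyme that joins cysteine to glutamate, parted: Gclc rose from 111 ± 0.782 to 183 ± 1.92 and 204 ± 2.46 CPM, and Gclm fell from 327 ± 6.82 to 228 ± 9.11 and 196 ± 7.11. Gsr, which reduces oxidised glutathione, was lower with EST in Vector cells (-0.92, adjusted p = 6.1e-10). Gcsh (0.47, adjusted p = 0.000579) and Gpx4 (0.22, adjusted p = 0.000832) were higher with SREBP2 when EST was present. When both libraries that stood apart were left out they were 0.38 (adjusted p = 1.43e-05) and 0.24 (adjusted p = 4.36e-05), and the list held 4 higher and 5 lower, against 16.8% and 14% of all genes. None of the genes of the lists passed the threshold for EST in SREBP2 cells, where no gene of the 11177 did. Without both libraries that stood apart, 1 other plasma membrane carrier, 5 carriers of lysosomes and mitochondria, 5 genes of the amino acid response, 4 of mTORC1 sensing and 2 of the glutathione, glycine and serine list passed, against 13.9% of all genes. Some genes stand in more than 1 list.

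**Figure D4:**
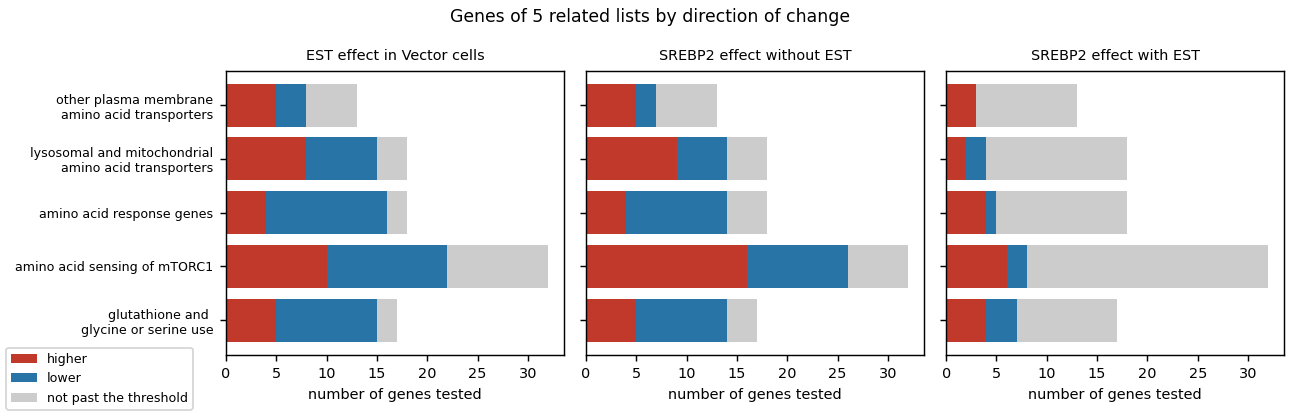
Number of genes tested (horizontal axes) in 5 related lists (rows) that were higher, lower or not past an adjusted p of 0.05 in 3 comparisons. With SREBP2 when EST was present, genes that did not pass the threshold outnumber those that did in all 5 lists.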

How the data were processed

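mRNA of G1E-ER4 cells was captured by oligo(dT) and sequenced as single-end reads of 50 bases, in 12 libraries and 4 groups taken from the sample titles. The authors deposited estimated counts per gene, not normalized, and 66.5% of the values are whole numbers. Their processing notes name HISAT2 2.0.4, Bowtie2 2.2.5, RSEM 1.2.12, DESeq2 1.4.5 and GRCm38.p6. Strand use was not stated. A further table holding the authors' own comparisons per transcript was not used. No column of the count table was left without a group.

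Counts were rounded to whole numbers and tested in R 4.3.3 with edgeR 4.0.16 (filterByExpr, TMM scaling, quasi-likelihood test, 1 mean per group, all 12 libraries), and p-values were adjusted by Benjamini-Hochberg over 11177 genes. The script was tested on simulated data. A call is an adjusted p under 0.05. Levels are TMM scaled CPM of the estimated counts. Comparisons that use the same group share its 3 libraries. Totals were 18700959 to 19152281, genes near 3 counts are imprecise at this depth, and floors cover counting error only.

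The carriers, lists and tests were chosen with earlier results of these data known. From each list, the text names the 3 called genes of largest absolute log2 fold change whose average log2 CPM was at least 3, for EST in Vector cells and for SREBP2 with EST present, besides Atf4, Ddit3, Asns, Slc25a38, Slc38a9, Sesn2, Gclc and Gclm. All 10 carriers and Srebf2 were named whatever their values. Correlations between carriers over libraries are not given, because the libraries fall into separate groups. Alternatives were DESeq2 1.42.0, other scalings and filters, the 6 libraries compared alone, a block on column numbers, each library left out and both libraries numbered 1 with SREBP2 left out. Column numbers are not the replicate numbers of the titles. The promoter of Slc7a1 is not reported here.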

Additional observations from a re-analysis of the deposited data

Results flagged for a closer look

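The response to EST differed between SREBP2 cells and Vector cells for 6 carriers, by the test of the difference itself in edgeR over all genes. The log2 fold change in SREBP2 cells minus that in Vector cells was -1.26 for Slc7a5 (adjusted p = 1.31e-10) and -1.12 for Slc7a6 (adjusted p = 3.89e-10), which rose with EST in Vector cells. It was 1.32 for Slc1a5 (adjusted p = 1.12e-07), 0.89 for Slc38a2 (adjusted p = 2.92e-09), 0.47 for Slc7a1 (adjusted p = 1e-04) and 1.02 for Slc6a9 (adjusted p = 9.49e-05), which fell. Such a difference was called for 59% of all genes. No gene was called for EST in SREBP2 cells, so these values largely repeat, with reversed sign, the EST response in Vector cells from the same libraries. Groups of 3 libraries are too small for a test of single outlying libraries.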

How the results depend on the processing

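Over 54 results and 1062 alternative values, 1002 kept their direction and side of the threshold or, for a number of carriers called, lay within 1.5 times the main number, 7 lost a call, 10 gained one, 1 number of carriers called moved further and 42 turned direction, all of them values that were not called. These include Slc7a11 and hold no list genes. For 45 called values of named list genes with SREBP2, leaving out each library in turn or both that stood apart, chosen after the data were seen, lost 29 of 585 calls and turned none. With Slc7a11 left out, 13 of 119 numbers of carriers called differed from the main one. Leaving out 1 library at a time, the carriers called of 7 were 6 with EST in Vector cells (65.9% to 71.4% of all genes called), 6 to 7 with SREBP2 without EST (66.9% to 71.3%), 3 to 4 with SREBP2 when EST was present (15.6% to 27.2%), 0 with EST in SREBP2 cells (0% to 0.159%), 2 to 3 for SREBP2 against EST (16.6% to 28.5%) and 6 for the difference in EST response (55.1% to 58.2%). Values of single carriers that turned direction with 1 library left out ranged, for EST in SREBP2 cells, from -0.176 to 0.0304 for Slc1a5, -0.0347 to 0.0195 for Slc38a2, -0.116 to 0.0123 for Slc3a2, -0.192 to 0.0603 for Slc6a9, -0.883 to 0.027 for Slc7a11 and -0.0318 to 0.0543 for Slc7a5. For SREBP2 when EST was present they ranged from -0.0254 to 0.0356 for Slc38a2, -0.12 to 0.0744 for Slc6a9 and -0.37 to 0.62 for Slc7a11, for SREBP2 against EST from -0.0113 to 0.0451 for Slc38a2, -0.0818 to 0.156 for Slc6a9 and -0.0711 to 0.0203 for Slc7a1, and for the difference in EST response from -0.0357 to 0.0958 for Slc3a2. With SREBP2 when EST was present Slc38a2 was -0.017 by DESeq2, -0.0169 by relative log expression scaling and -0.0448 with library totals, with which Slc38a2 was -0.0328 and Slc6a9 -0.032 for SREBP2 against EST. Without both libraries that stood apart, 3 carriers and 1567 genes (13.9%) were called for EST in SREBP2 cells in place of 0, Slc7a5 was -0.0549 there, Slc38a2 was -0.0273 with SREBP2 when EST was present, Slc7a1 was 0.0171 for SREBP2 against EST and Slc3a2 was -0.0576 for the difference in EST response, and the cause was not tested. Without a filter 22 genes and in the 6 libraries alone 8 genes were called for EST in SREBP2 cells. At least 10 counts in every library removed Slc7a11 and left the other 7 carriers with the same number of calls. The difference in EST response needs all groups and was not run on 6 libraries.

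Column numbers did not pair the libraries: none of 13 pairs with the same number had a correlation of deviations over 0.1 (-0.17 to 0.07). With the number as a replicate block the carriers called of 7 were, in the same order, 6 (63.4% of all genes called), 6 (64.2%), 3 (10.8%, or 1208 genes in place of 2448), 0 (0%), 3 (16.1%) and 6 (48.2%). Under the block Slc1a5 lost its call with SREBP2 without EST (-0.23, adjusted p = 0.0887 by edgeR), Slc6a9 was 0.092 with SREBP2 when EST was present, and for EST in SREBP2 cells Slc3a2 was 0.028, Slc38a2 0.0081 and Slc6a9 0.0846.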
